A study of Mus musculus with 12 samples.

Results

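The collagen genes measured in mouse quadriceps muscle after treatment with 2 exercise-mimicking drugs, GW1516 and AICAR, are described here. They were taken as every gene whose symbol in the array annotation is Col, a number, a, and a number, and 42 of the 18193 genes with 1 symbol met this rule. Each was read from its brightest probe set, a probe set being a group of short probes on the array that reports 1 transcript or a few related ones, and Col22a1 from all 3 of its probe sets. Within this rule, names and brightness over all arrays were used, not differences between groups. The collagen family, and Col22a1 for reading all its probe sets, were however chosen with earlier results of these data known. After removal of dim probe sets, 32 of the 42 collagens were among the 12771 genes tested. Col25a1 and Col23a1, with geometric mean signals of 25.9 and 27.0, fell just outside the filter, and Col2a1 and Col24a1, with 35.5 and 43.4, just inside it.

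C57Bl/6J mice were dosed over 6 days. The 4 groups were vehicle, AICAR (250 mg/kg each day), GW1516 (5 mg/kg each day) and a combination of these doses. AICAR switches on AMP-activated protein kinase, an energy sensor, and GW1516 is a ligand that activates PPARδ, a nuclear receptor of fat metabolism. Each group has 3 Affymetrix arrays, 12 in all, and each array was hybridised with RNA pooled from the quadriceps of 3 mice. The age, sex and dosing route are not stated in the labels, and nothing in them says that pools of a group held separate mice, so p-values measure only the spread between these pools.

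Collagens are secreted proteins in which 3 chains wind into a triple helix. Fibrillar types assemble outside the cell into the fibres that give muscle connective tissue and tendon their strength, type IV forms the sheet-like basement membrane around each muscle fibre and capillary, and type VI forms beaded filaments that link that membrane to the surrounding matrix. FACIT collagens, such as types XII, XIV and XXII, decorate fibrils or sit at tissue borders, and Col22a1 encodes the chain of a FACIT found at the muscle-tendon junction. In muscle most collagen RNA is made by fibroblasts, with further contributions from vascular and fibre cells.

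Upstream sequences are shown for 3 fibrillar chains that differed in how low they stood on the second GW1516 array, described below: Col1a2 and Col5a1, and Col5a3, a chain of the same collagen type as Col5a1. They are the 250 bases before the annotated start, from RefSeq on GRCm38.p6, and 33 of the 42 collagens had such a window (Col1a1, Col2a1, Col4a3, Col5a2, Col9a3, Col12a1, Col14a1, Col22a1 and Col26a1 did not match). The capitals mark the CCAAT box and the GC box GGGCGG, printed as its reverse complement where it lies on the other strand. Col1a2 lies at chr6:4505368-4505617 on the plus strand, Col5a1 at chr2:27886175-27886424 on the plus strand and Col5a3 at chr9:20815068-20815317 on the minus strand.
Col1a2: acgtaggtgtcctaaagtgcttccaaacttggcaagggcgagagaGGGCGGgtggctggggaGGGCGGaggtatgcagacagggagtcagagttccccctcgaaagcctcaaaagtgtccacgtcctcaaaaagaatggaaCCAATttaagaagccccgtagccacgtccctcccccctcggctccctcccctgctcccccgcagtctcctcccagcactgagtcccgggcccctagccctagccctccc
Col5a1: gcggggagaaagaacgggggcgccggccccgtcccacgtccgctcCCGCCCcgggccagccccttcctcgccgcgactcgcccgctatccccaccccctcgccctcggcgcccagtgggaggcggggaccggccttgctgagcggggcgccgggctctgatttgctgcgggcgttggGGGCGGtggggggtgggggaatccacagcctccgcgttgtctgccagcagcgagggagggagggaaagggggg
Col5a3: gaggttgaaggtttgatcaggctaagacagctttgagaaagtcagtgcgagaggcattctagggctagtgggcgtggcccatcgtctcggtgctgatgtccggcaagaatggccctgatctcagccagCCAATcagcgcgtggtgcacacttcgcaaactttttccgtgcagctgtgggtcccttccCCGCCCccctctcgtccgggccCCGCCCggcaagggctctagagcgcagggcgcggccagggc
Searched on both strands, the CCAAT box was in 13 of the 33 collagen genes with a window and in 33.8% of all 32851 windows of this length. The GC box was in 20 of the 33 genes and in 32.7% of all windows. A collagen gene was counted if any of its windows matched, and Col18a1, Col6a2 and Col9a1 have 2 windows each. The shares over all windows are per window, so the 2 kinds of count are not fully alike. The Col1a2 window held CCAAT at 109 bases and GC boxes at 188 and 205 bases before the start, while the Col5a3 window held CCAAT at 122 bases and GC boxes at 41 and 63 bases. Col5a1 had GC boxes at 73 and 205 bases and no CCAAT match. TATAAA was found in 5 collagen genes, among them Col3a1, against 12.4% of all windows. The direct-repeat element bound by PPAR receptors (its consensus with a 1-base spacer) matched in 0 of 33 collagen genes and 0.0335% of all windows. The palindrome GTCTAGAC, which SMAD proteins can bind, matched in 0 of 33 genes and 0.167% of all windows. Such matches are descriptions of the letters in these windows, and a missing match says only that the letters are not there.

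All 12 arrays had been scaled to a trimmed mean signal of 200, their median signals ran from 45.4 to 54.2, and pairwise correlations over the tested genes lay between 0.947 and 0.968. The number of arrays limits the precision, with a median standard error of 0.19 for a log2 difference between 2 groups. Muscle fibre markers (7 of 7 past the filter) summed to signals of 139711 to 147634 with vehicle, 149367 to 150309 with AICAR, 140591 to 177178 with GW1516 and 157677 to 164994 with the combination, so the labelled tissue was borne out by its markers. The second GW1516 array stood apart beyond the collagens, with the lowest mean correlation with the others (0.953) and the lowest median signal (45.4). It was the lowest of the 12 arrays in 19.8% of all genes and the highest in 14.5%. Among the 32 collagens it was the lowest in 18 (56.2%) and the highest in 0. The array lay over 1 log2 unit below the vehicle mean in 15 collagens (46.9%), against 4.02% of all genes. Results that rest on it are therefore given with and without it.

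Col22a1 was lower in both groups that received GW1516. Its brightest probe set, 1453084_s_at, gave signals of 328, 372 and 439 on the vehicle arrays and 320.2, 314 and 339 with AICAR. With GW1516 the signals were 218, 181 and 196, and with the combination 218, 259 and 229. All 6 arrays with GW1516 were below all 6 without it, which was so for 1 of 32 collagens and for 0.305% of all genes. On the log2 scale the means were 8.56 ± 0.21 with vehicle, 8.34 ± 0.059 with AICAR, 7.63 ± 0.14 with GW1516 and 7.88 ± 0.13 with the combination (SD, n = 3 each). In whole muscle, fewer cells making a transcript and less transcript per cell cannot be told apart.

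In limma's fit across all genes, Col22a1 fell with GW1516 against vehicle by 0.93 ± 0.13 on the log2 scale (1.91-fold, adjusted p = 0.0141). It was 1 of 32 collagens called at an adjusted p below 0.05 in that comparison, and 0.094% of all genes were called, 0.0157% as lower. Without GW1516 replicate 2 the difference was -0.87 (adjusted p = 0.0399), and 0.0939% of all genes were called. Averaged over both backgrounds, that is GW1516 and combination arrays against vehicle and AICAR arrays, the GW1516 difference was -0.70 ± 0.093 (adjusted p = 0.00495, and 0.00726 without that array). Col22a1 was again the 1 collagen called, beside 0.149% of all genes, and 0.219% without that array. The moderated F test over the 4 groups also called Col22a1 (adjusted p = 0.0227), as it did 0.11% of all genes. The call in GW1516 against vehicle was lost without vehicle replicate 2 (adjusted p = 0.0853) or 3 (0.0746), with only the 2 groups in the fit (0.278), without the trend in the variance prior (0.109) and with the mean of the 3 probe sets (-0.37, 0.480). The average effect lost its call with the mean of the probe sets (-0.35, adjusted p = 0.341) and in no other alternative run. The F test lost its call with averaged probe sets, without the trend, with the replicate number as a block and in 7 of the 12 fits that left out 1 array.

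The combination differed from vehicle in Col22a1 by -0.68 ± 0.13 with an adjusted p of 0.0506, which missed the threshold, and 0 of 32 collagens were called in that comparison against 0.258% of all genes. Without GW1516 replicate 2, an array outside both groups that bears on the shared variance, the brightness filter and the choice of probe sets, the adjusted p was 0.0238, with 0.727% of all genes called. AICAR against vehicle gave -0.22 ± 0.13 (adjusted p = 0.76), and the combination against AICAR -0.47 ± 0.13 (adjusted p = 0.583). From lowest to highest the groups were ordered GW1516, combination, AICAR and vehicle, and no neighbours in that order differed at the threshold. The combination stood 0.25 ± 0.13 above GW1516 (adjusted p = 0.526), although all 3 of its arrays were above all 3 GW1516 arrays. That was so for 4 collagens (Col11a2, Col22a1, Col24a1 and Col8a1; 12.5%) and 6.77% of all genes.

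The 3 probe sets of Col22a1 did not read alike. The second, 1429280_at, gave 273, 249 and 324 with vehicle, 317, 286 and 297 with AICAR, 246, 221 and 224 with GW1516 and 264, 201 and 292 with the combination. Its 3 GW1516 arrays were below all vehicle and AICAR arrays, but the combination arrays overlapped both of those groups. Fitted over all probe sets with limma, it differed by -0.28 ± 0.15 between GW1516 and vehicle (adjusted p = 0.583), against an adjusted p of 0.0196 for 1453084_s_at, which was 0.0600 without GW1516 replicate 2. Of all probe sets 0.0572% were called in this comparison, and 0.119% in the average GW1516 effect. The third and dimmest, 1446851_at, gave 65.3, 81.5 and 130.3 with vehicle, 85.7, 104 and 105 with AICAR, 85.5, 98.3 and 100.1 with GW1516 and 85.1, 78.2 and 82.3 with the combination. Here the vehicle arrays spanned the values of every other group, and the GW1516 difference was 0.093 ± 0.24. The mean log2 signals of the first and second probe sets, 8.10 and 8.04, were close, so which one stood for the gene rested on a small gap. In Affymetrix names, the ending _s_at marks a probe set that may also match other transcripts, and what else 1453084_s_at reads was not tested.

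**Figure D1:**
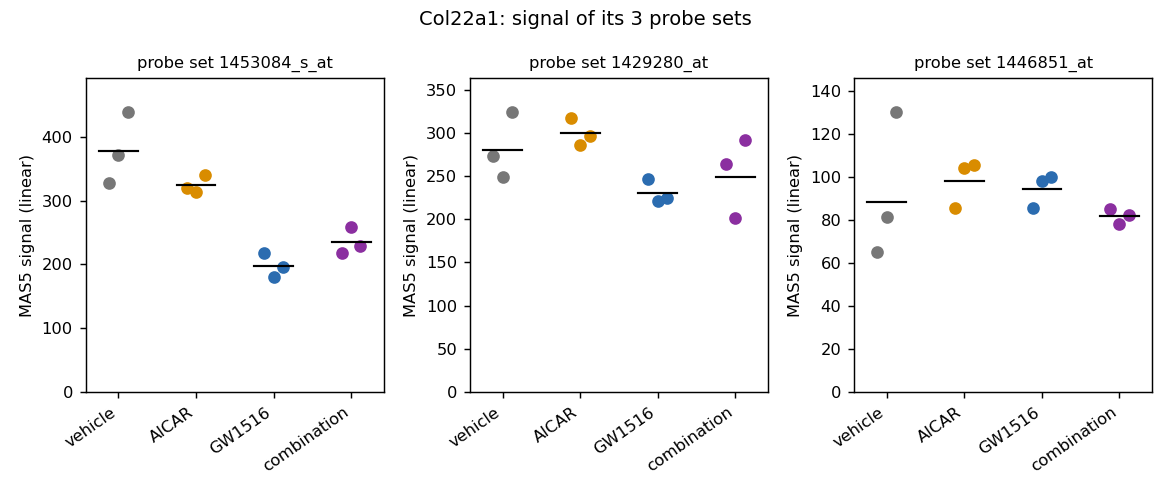
MAS5 signal of the 3 Col22a1 probe sets on each of the 12 arrays by treatment group, with points for arrays and bars for the geometric mean of 3 arrays. For 1453084_s_at the 6 arrays with GW1516 lie between 181 and 259, below the 6 arrays without it, while the groups overlap for 1446851_at.

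Of the 11 fibrillar collagens, 7 were over 1 log2 unit below the vehicle mean on GW1516 replicate 2. Col1a1, which encodes the main chain of type I collagen, gave signals of 5123, 6829.9 and 4328 with vehicle, 7275, 4761 and 4119 with AICAR, 4565, 1241 and 4641 with GW1516 and 3730.4, 3929 and 4194 with the combination. Its partner chain Col1a2 gave 7865, 10553 and 7450.5 with vehicle, 11208, 8060.5 and 6585 with AICAR, 7606, 3059 and 8182 with GW1516 and 6497, 7039 and 7446 with the combination. In both genes GW1516 replicate 2 was the lowest array, and the other 2 GW1516 arrays fell among the vehicle values. GW1516 against vehicle was -0.84 ± 0.38 for Col1a1 (adjusted p = 0.512) and -0.21 without that array. For Col1a2 the same difference was -0.57 ± 0.29, and -0.11 without it.

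Col3a1, the type III chain that is abundant in the sheaths around muscle fibres, gave 5997, 6588 and 4576 with vehicle, 6852, 7511 and 6266 with AICAR, 5747, 2109 and 7070.0 with GW1516 and 5160.4, 4952 and 4999.8 with the combination. Its difference between GW1516 and vehicle was -0.36 ± 0.31, and 0.17 without replicate 2, so the sign turned. Type V collagen, which sits inside type I fibrils and limits their diameter, showed the same array as lowest. Col5a1 gave 563, 631 and 580.3 with vehicle, 722, 803 and 653 with AICAR, 646, 274 and 658 with GW1516 and 474, 618 and 597 with the combination. Col5a2 gave 620.4, 788 and 594 with vehicle, 774, 752 and 626 with AICAR, 561, 257 and 654 with GW1516 and 535, 549 and 539 with the combination. The third type V chain, Col5a3, gave 407, 333 and 360.4 with vehicle, 304, 447 and 377 with AICAR, 365, 284 and 404 with GW1516 and 301, 329 and 313 with the combination, and its lowest value was much nearer the others. GW1516 differences for the 3 chains were -0.27 ± 0.25, -0.54 ± 0.25 and -0.074 ± 0.16, and 0.14, -0.13 and 0.071 without the array.

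Col11a1, a minor fibrillar chain best known from cartilage, was the collagen with the second-smallest p in GW1516 against vehicle. It gave 92.8, 124 and 74.1 with vehicle, 113, 93.1 and 90.1 with AICAR, 45.5, 36.8 and 70.8 with GW1516 and 61.5, 121 and 73.0 with the combination. All 3 GW1516 arrays were below all 3 vehicle arrays, which was so for 3 collagens (Col11a1, Col22a1 and Col8a1; 9.38%) and for 7.91% of all genes. GW1516 replicates 1 and 3 alone were below all vehicle arrays in the same 3 collagens and in 12% of all genes. The difference of -0.95 ± 0.31 did not pass (adjusted p = 0.416), and was -0.74 without replicate 2. Its combination arrays overlapped the vehicle arrays. In all, 11 of 11 fibrillar chains were below 0 in GW1516 against vehicle, with a median of -0.47, against 7 of 11 and -0.09 without replicate 2. On that array 8 of the 11 had their lowest value, and their median lay at -1.37 relative to the vehicle mean, against -0.16 and -0.018 on the other 2 GW1516 arrays.

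**Figure D2:**
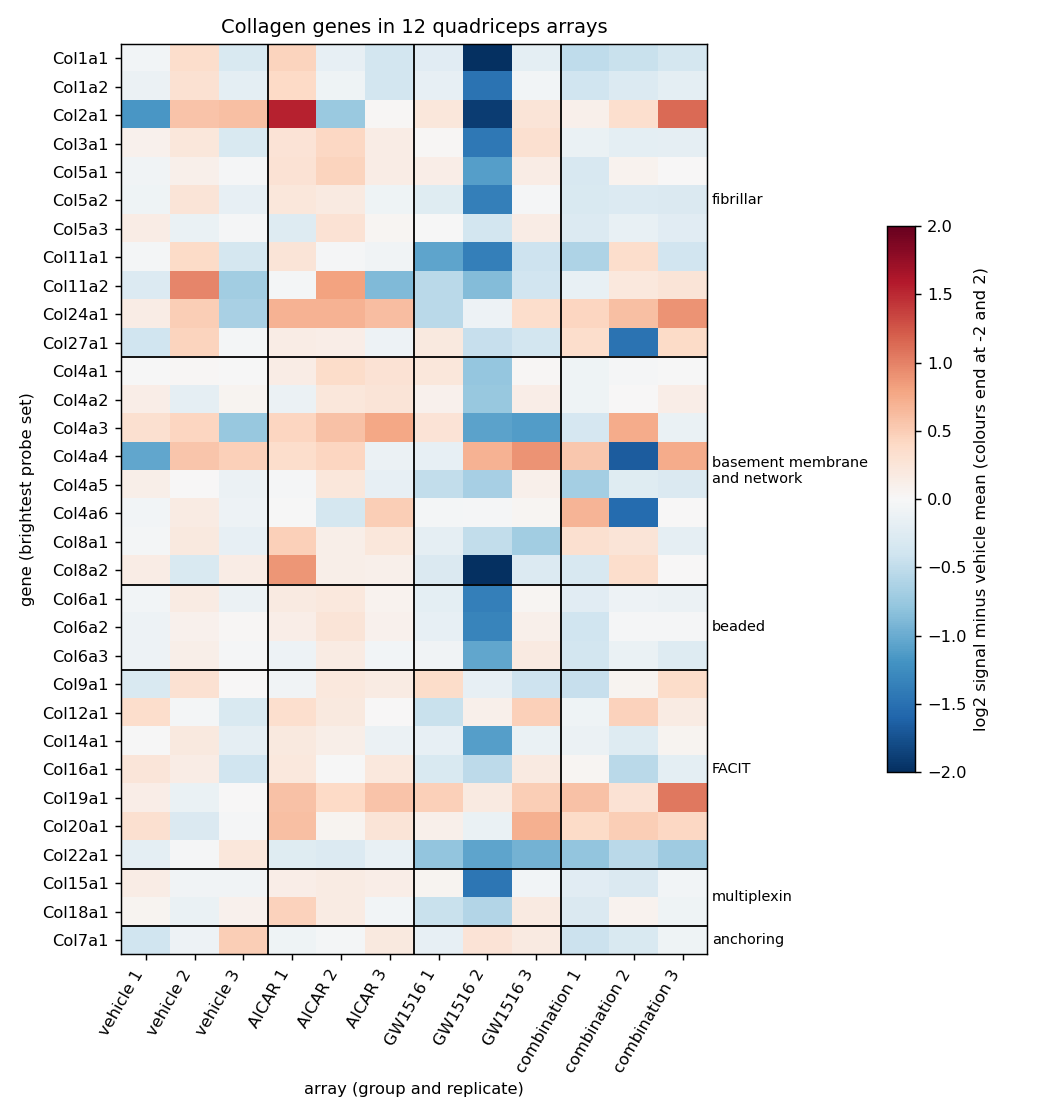
Log2 signal minus the vehicle mean for the 32 collagens past the filter (rows, by structural class) on the 12 arrays (columns, by group and replicate), with colours ending at -2 and 2. GW1516 replicate 2 is the darkest blue column in the fibrillar and beaded classes, and Col22a1 is blue on all 6 arrays with GW1516.

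The type VI chains, which assemble together into beaded filaments, were all over 1 log2 unit below the vehicle mean on GW1516 replicate 2. Col6a1 gave 1301, 1519 and 1248 with vehicle, 1526, 1571 and 1416 with AICAR, 1174, 524 and 1394 with GW1516 and 1153, 1259 and 1250.0 with the combination. Col6a2 gave 1325, 1515 and 1452 with vehicle, 1569.7, 1709 and 1512 with AICAR, 1274, 574 and 1534 with GW1516 and 1087, 1399.9 and 1404 with the combination. For Col6a3, the large chain of the filament, signals were 1312, 1526 and 1373 with vehicle, 1302, 1570.4 and 1351 with AICAR, 1331, 678 and 1587 with GW1516 and 1083, 1276 and 1170.0 with the combination. That array was the lowest of the 12 for all 3 chains, and the other GW1516 arrays overlapped vehicle. Their GW1516 differences were -0.51 ± 0.25, -0.46 ± 0.25 and -0.31 ± 0.22 with all arrays, and -0.079, -0.031 and 0.053 without it. The adjusted p for Col6a1 was 0.535 with all arrays.

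Among basement membrane and network collagens, Col4a1 and Col4a2 are the chains of the common type IV network. Col4a1 gave 1778, 1805 and 1765 with vehicle, 1976, 2292 and 2176 with AICAR, 2092, 1040.1 and 1804 with GW1516 and 1680.0, 1747 and 1764 with the combination. The vehicle arrays of Col4a1 were close together, its AICAR arrays were all above them and its combination arrays all below them. Col4a2 gave 1486, 1195 and 1404 with vehicle, 1255, 1583 and 1629 with AICAR, 1439.9, 799.6 and 1479.8 with GW1516 and 1284, 1365 and 1482 with the combination, with all groups overlapping outside GW1516 replicate 2. GW1516 differences were -0.18 ± 0.18 for Col4a1 and -0.18 ± 0.19 for Col4a2, and turned to 0.12 and 0.11 without that array. The 2 genes are head-to-head neighbours with annotated starts 21 bases apart.

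The short-chain network collagens of type VIII, known from vessel walls, were both low with GW1516. Col8a1 gave 74.1, 86.9 and 67.7 with vehicle, 105, 82.4 and 88.6 with AICAR, 66.8, 53.8 and 46.6 with GW1516 and 94.5, 90.4 and 67.1 with the combination. Its difference of -0.46 ± 0.24 did not rest on replicate 2 (-0.44 without it), but did not pass the threshold (adjusted p = 0.552). Col8a2 had the largest GW1516 difference of any collagen, -1.32 ± 0.65, on signals of 62.1, 45.2 and 62.3 with vehicle, 103, 60.7 and 59.9 with AICAR, 46.0, 5.25 and 46.5 with GW1516 and 44.8, 71.6 and 56.4 with the combination. The value of 5.25 on replicate 2 was far below the other 11, and the difference was -0.27 without that array. The minor type IV chains, Col4a3 to Col4a6, gave GW1516 differences from -0.64 (Col4a3) to 0.47 (Col4a4) on dim signals. Without replicate 2 a different probe set of Col4a4 was the brightest, so its value of -0.24 there is not of the same probe set.

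In the FACIT class 2 of 7 members were over 1 log2 unit below vehicle on GW1516 replicate 2, where the class median was -0.16. Col12a1, which binds type I fibrils in tendon and muscle fascia, gave 99.6, 75.6 and 63.2 with vehicle, 98.3, 89.0 and 78.5 with AICAR, 57.5, 83.6 and 109 with GW1516 and 73.6, 108 and 88.0 with the combination, with all groups overlapping. Col14a1, a related fibril-associated chain, gave 169, 194 and 149.6 with vehicle, 195, 185 and 157 with AICAR, 152, 79.3 and 154 with GW1516 and 156, 142 and 177 with the combination, and only the value of 79.3 on replicate 2 stood below the rest. GW1516 differences were 0.046 ± 0.27 for Col12a1 and -0.46 ± 0.23 for Col14a1 (-0.15 without that array). Col19a1, a minor FACIT of muscle and brain, gave 56.3, 47.0 and 51.6 with vehicle, 77.1, 68.0 and 76.2 with AICAR, 71.5, 58.1 and 72.7 with GW1516 and 77.5, 62.7 and 107 with the combination. It was the only collagen with all 3 GW1516 arrays above all 3 vehicle arrays (6.3% of all genes). Its 3 AICAR arrays were also above all vehicle arrays, as in 5 collagens and 9.3% of all genes. So were its 3 combination arrays, as in 2 collagens and 8.9% of all genes. The share of all genes with all of these was not counted. The GW1516, AICAR and combination differences were 0.38 ± 0.25, 0.52 ± 0.25 and 0.64 ± 0.25, of which none passed (adjusted p = 0.644, 0.73 and 0.371). These 3 differences share the vehicle arrays. The other Col19a1 probe set past the filter lay on the opposite side of 0 in GW1516 against vehicle, at -0.20. Of the 7 FACIT chains tested, 4 were below 0 in GW1516 against vehicle.

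The multiplexins are collagens of basement membrane zones that carry an anti-angiogenic end fragment. Col15a1 gave 459, 396 and 396 with vehicle, 455, 466 and 455 with AICAR, 433, 152 and 399.6 with GW1516 and 357, 341 and 400.1 with the combination, and its 1 low value lay on GW1516 replicate 2. The difference between GW1516 and vehicle was -0.48 ± 0.28 with that array and 0.00012 without it. Col18a1 gave 159.7, 139 and 162 with vehicle, 211, 172 and 147 with AICAR, 112, 102 and 174 with GW1516 and 126, 162 and 144 with the combination, with a GW1516 difference of -0.28 ± 0.21 (-0.13 without it). Col7a1, the anchoring fibril chain, had values from 186 to 351 over the 12 arrays and a GW1516 difference of 0.098 that was on the other side of 0 from most collagens. The transmembrane collagens Col13a1, Col17a1, Col23a1 and Col25a1 were all too dim to be tested. So were Col10a1, Col26a1, Col6a4, Col6a5, Col9a2 and Col9a3.

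The 9 remaining members past the filter, beside Col4a3 and Col4a4, had mean log2 signals over the 12 arrays from 5.15 to 7.30. Among them are fibrillar chains best known from cartilage and bone. GW1516 against vehicle gave -0.47 for Col2a1, -0.59 for Col11a2, -0.096 for Col24a1 and -0.21 for Col27a1, and without replicate 2 0.24, -0.46, -0.09 and -0.083. The FACIT chains Col9a1, Col16a1 and Col20a1 gave -0.066, -0.21 and 0.22. The minor type IV chains Col4a5 and Col4a6, which form their own network in some basement membranes, gave -0.35 and -0.0058. Of these 9 genes, 8 were below 0 and limma called 0, with 0 at an unadjusted p below 0.05.

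**Figure D3:**
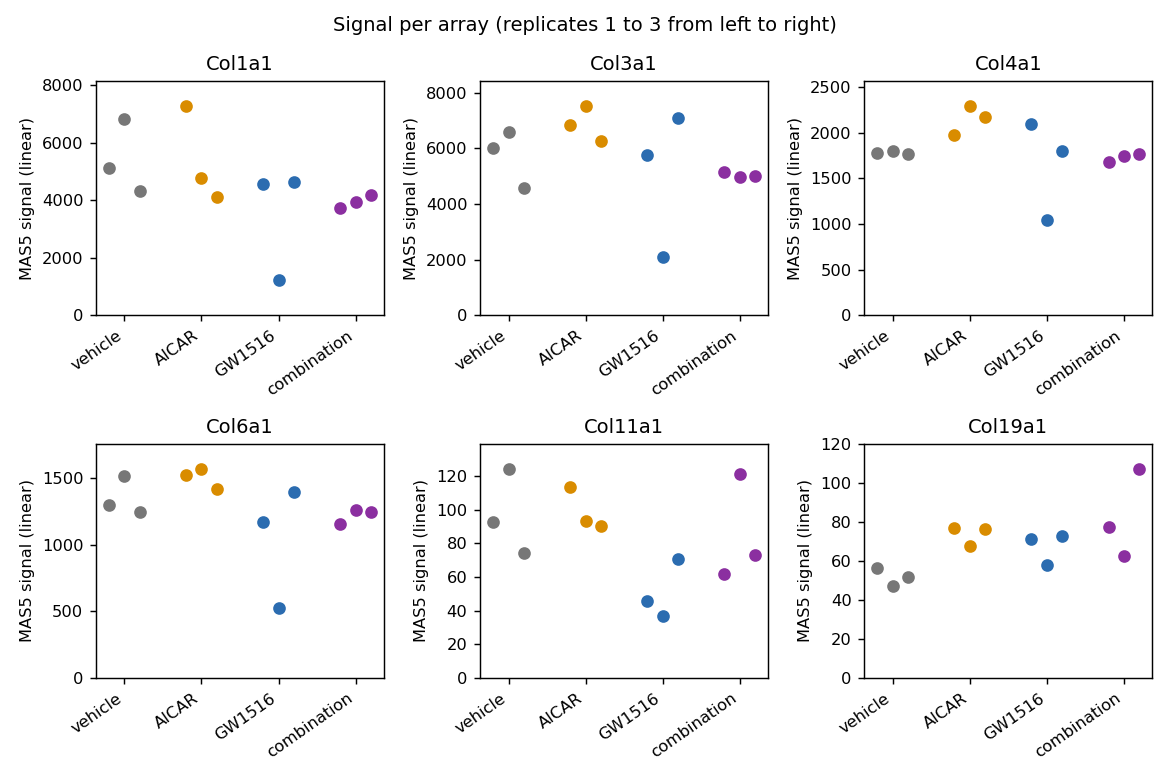
Signal on each array (linear MAS5 units, replicates 1 to 3 from left to right within a group) for 6 collagens. GW1516 replicate 2 is the lowest point for Col1a1, Col3a1, Col4a1 and Col6a1, all 3 GW1516 arrays are below vehicle for Col11a1, and the vehicle arrays of Col19a1 are below every array of the other groups.

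Over all 32 collagens, 27 (84.4%) were below 0 in GW1516 against vehicle, with a median of -0.33, while 52.9% of all genes were below 0 with a median of -0.014. Without GW1516 replicate 2 the count was 20 of 32 (62.5%), against 49.2% of all genes, and the median -0.070. At an unadjusted p below 0.05, 4 collagens were lower (Col11a1, Col1a1, Col22a1 and Col5a2; 12.5% against 5.16% of all genes) and 0 higher (4.48%). Without that array 2 were lower, against 3.32% of all genes. Of 19 collagens with more than 1 probe set past the filter, 14 had every probe set on the same side of 0 in this comparison. Differences of Col1a1 ranged from -0.84 to -0.37 over 2.0 probe sets and those of Col1a2 from -0.86 to -0.30 over 3.0, while those of Col20a1 ran from -0.42 to 0.22 over 3.0.

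**Figure D4:**
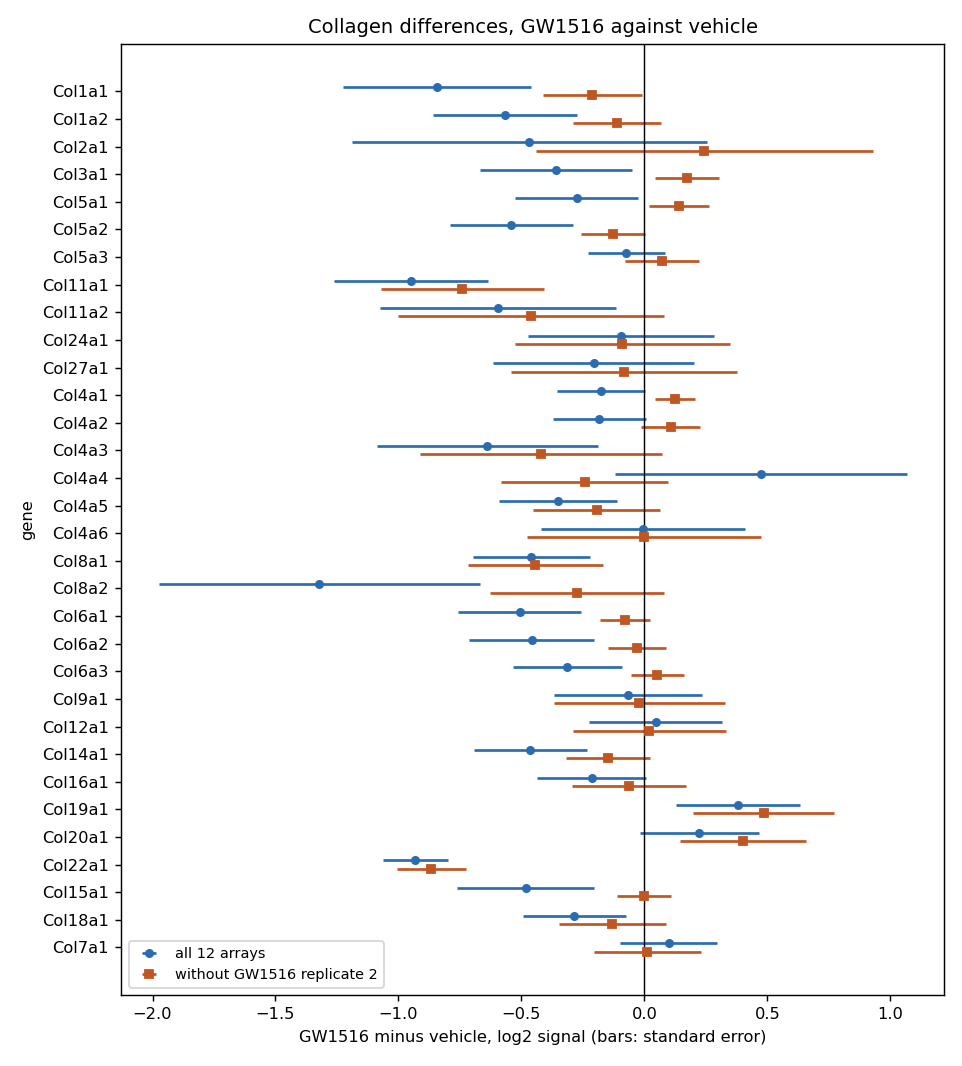
Log2 difference between GW1516 and vehicle for each of the 32 collagens, with standard errors from limma, fitted with all 12 arrays (circles) and without GW1516 replicate 2 (squares). Col22a1 stays near -0.9 in both fits, whereas Col1a1, Col1a2, Col6a1 and Col15a1 move towards 0 without that array.

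AICAR alone changed no collagen past the threshold. Against vehicle, limma called 0 of 32 collagens and 0.00783% of all genes, and 0 collagens had an unadjusted p below 0.05 in either direction, as 3.05% of all genes (lower) and 3.88% (higher) did. When GW1516 replicate 2 was left out, 3 were higher at that threshold (Col3a1, Col4a1 and Col5a1; 9.38% against 5.01%), and limma still called 0. Of the 32, 4 were below 0 and 28 above, with a median difference of 0.14, against 48% of all genes below 0 and a median of 0.0090. This count depended on scaling: with each array centred on its median, which shifted the median of all genes by -0.12, 18 of 32 were above 0 and the collagen median was 0.023. Under that centring 14 of 32 collagens were below 0, against 68.4% of all genes, whose median was -0.11. All 3 AICAR arrays were above all 3 vehicle arrays in 5 collagens (Col19a1, Col24a1, Col4a1, Col4a3 and Col5a1; 15.6%), against 9.3% of all genes. Col4a1 differed by 0.27 ± 0.18 (adjusted p = 0.789) and Col24a1, a fibrillar chain first described in bone and cornea, by 0.67 ± 0.38 (adjusted p = 0.756).

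With the combination, 22 of 32 collagens were below 0 against vehicle, with a median of -0.14, and 50.9% of all genes were. All 3 combination arrays were below all 3 vehicle arrays in 8 collagens (Col1a1, Col1a2, Col22a1, Col4a1, Col4a5, Col5a2, Col5a3 and Col6a3; 25%), against 9.69% of all genes. Col22a1 alone had an unadjusted p below 0.05 on the lower side, as 5.79% of all genes did. There were 5 without GW1516 replicate 2 (Col1a1, Col22a1, Col4a4, Col5a2 and Col6a3; 15.6% against 7.45%), Col4a4 through another probe set. Col1a1 differed by -0.43 ± 0.38 (adjusted p = 0.721) and Col5a3 by -0.22 ± 0.16 (adjusted p = 0.649). Col19a1 was the 1 collagen higher at an unadjusted p below 0.05, against 5.07% of all genes. Col19a1 and Col20a1, another minor FACIT chain, had all 3 combination arrays above all 3 vehicle arrays (6.25%, against 8.9%).

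The combination against AICAR gives the GW1516 difference in animals that all received AICAR, and shares no array with GW1516 against vehicle. Here 27 of 32 collagens were below 0, with a median of -0.30, against 53.1% of all genes and -0.017. All 3 combination arrays were below all 3 AICAR arrays in 11 collagens (34.4%), against 7.68% of all genes: Col15a1, Col22a1, Col3a1, Col4a1, Col4a5, Col5a1, Col5a2, Col6a1, Col6a2, Col6a3 and Col7a1. Limma called 0 of 32, beside 0.0313% of all genes, and 1 collagen (Col22a1) was lower at an unadjusted p below 0.05, against 4.04%. Without GW1516 replicate 2, an array of neither group, 11 collagens were lower and 0 higher at that threshold (34.4% against 5.19% of all genes), Col4a4 through another probe set, and limma still called 0 (0.0782% of all genes). Col4a1 differed by -0.31 ± 0.18 (adjusted p = 0.743, and 0.292 without that array) and Col3a1 by -0.45 ± 0.31 (adjusted p = 0.776, and 0.336). Below 0 in both this comparison and GW1516 against vehicle were 25 of 32 collagens (78.1%), against 29.6% of all genes, and 19 (59.4%) against 27.6% without GW1516 replicate 2.

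The average GW1516 effect was below 0 in 28 of 32 collagens, with a median of -0.29, against 54.3% of all genes, and in 27 without GW1516 replicate 2, with a median of -0.17, against 52.5%. At an unadjusted p below 0.05, 6 collagens were lower (Col11a1, Col1a1, Col22a1, Col4a5, Col5a2 and Col6a1; 18.8% against 5.36% of all genes), and none of these but Col22a1 was called. Col5a2 had -0.47 ± 0.18 (adjusted p = 0.433), and -0.26 without that array (adjusted p = 0.373). The average AICAR effect was below 0 in 5 of 32 collagens (47.5% of all genes), and in 14 of 32 without GW1516 replicate 2 (49.4%), where the median was 0.028 instead of 0.19, with 0 called against 0.0313% of all genes. At an unadjusted p below 0.05, Col19a1, Col24a1 and Col8a1 were higher in it (9.38% against 5.7%).

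Set directly against AICAR, GW1516 was lower in 30 of 32 collagens, with a median of -0.54, and 55.7% of all genes were below 0. Leaving out GW1516 replicate 2, it was lower in 29 of 32, with a median of -0.17, and 51.9% of all genes were. At an unadjusted p below 0.05, 13 collagens were lower (40.6% against 5.14% of all genes), which was 4 without GW1516 replicate 2 (3.82%), and 0 were called, as were 0% of all genes. Median centring, which shifted the median of all genes by 0.15 here, left 25 of 32 below 0, against 32.2% of all genes. The combination against GW1516 had 7 of 32 below 0 (47.9% of all genes), and 18 without that array (51.4%), with 0 collagens and 0% of all genes called, and 2 collagens (Col11a1 and Col8a1) higher at an unadjusted p below 0.05 (5.15% of all genes). Leaving that array out, 0 were higher and 2 lower (Col3a1 and Col6a3; 6.25% against 4.65%), and the median turned from 0.23 to -0.10. In the interaction, which asks whether the GW1516 difference was the same with and without AICAR, 0 collagens and 0% of all genes were called. Col22a1 was the 1 collagen at an unadjusted p below 0.05 there (3.29% of all genes on the higher side), and 15 of 32 collagens were below 0 (50.5% of all genes), with a median of 0.061. The unadjusted p of Col22a1 was 0.0508 without GW1516 replicate 2, and 0 collagens were higher at that threshold. Instead 4 were lower (Col15a1, Col3a1, Col4a1 and Col5a1; 12.5% against 3.39% of all genes), 26 of 32 were below 0 (52.5% of all genes) and the median was -0.23.

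Genes that build, bind and break down collagen were read from 7 lists, chosen with earlier results of these data known. Limma called 0 of their members in each of the 9 comparisons. Of the collagen-binding matrix proteins, 13 of 15 were below 0 in GW1516 against vehicle, with a median of -0.29. On GW1516 replicate 2 their median was -0.99, against -0.17 and 0.074 on the other 2 GW1516 arrays. Lum, a small proteoglycan that spaces collagen fibrils, differed by -0.60 ± 0.26 (adjusted p = 0.501), and Fn1, fibronectin, by -0.56 ± 0.25 (adjusted p = 0.501). Without that array they differed by -0.18 and -0.15. At an unadjusted p below 0.05 in GW1516 against vehicle, 3 of the 15 matrix proteins were lower and 0 higher, while 5.16% of all genes were lower. Among the enzymes and chaperones that modify and fold chains 9 of 14 were below 0, with a median of -0.049. P4hb, a subunit of prolyl 4-hydroxylase, differed by 0.30 ± 0.082 (adjusted p = 0.277), and was the 1 of 14 with an unadjusted p below 0.05.

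P4hb gave 2526, 2358 and 2592 with vehicle and 2903, 3375 and 2958 with GW1516, and GW1516 replicate 2 was its highest array. Serpinh1, the collagen-specific chaperone, gave 694, 657 and 669 with vehicle and 575, 372 and 679 with GW1516. The 2 folding genes thus stood on opposite sides of vehicle on that array. Procollagen export and cleavage genes were below 0 in 4 of 6, among them Bmp1, which trims the C-terminal propeptide (-0.45 ± 0.17, adjusted p = 0.478). Cross-linking enzymes of the lysyl oxidase family were below 0 in 2 of 4, with a median of -0.017. Collagen receptors were below 0 in 5 of 7, with Ddr2, a collagen-activated receptor kinase, at -0.38 ± 0.15 (adjusted p = 0.478). Of breakdown enzymes and their inhibitors 6 of 10 were below 0, with Fap, a fibroblast protease, at -0.61 ± 0.18 (adjusted p = 0.361) and -0.35 without replicate 2. Unadjusted p-values below 0.05 on the lower side were found for 3 of these 10, 2 of 6 export and cleavage genes and 2 of 7 receptors. On the higher side there were 0 breakdown genes, 1 export and cleavage gene (Mia3, 0.21) and 1 receptor (Itga10, 0.78). Itga10 was dim, with signals of 23.3, 25.4 and 30.4 with vehicle and 44.8, 36.2 and 55.8 with GW1516. The 4 cross-linking enzymes had 0 on either side. Of all genes, 5.16% were lower and 4.48% higher at that threshold. TGF-beta signalling is a main inducer of collagen genes. Of its 13 listed genes 9 were below 0 with a median of -0.093, and 7 of 13 without GW1516 replicate 2. With all arrays, 0 of them were lower and 1 higher at an unadjusted p below 0.05.

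Fibroblast and tendon cell markers were low on the same array. All 10 fibroblast markers passed the filter, 4 of which are also in the matrix list. Their median relative to vehicle was -0.65 on GW1516 replicate 2, against -0.22 and 0.017 on the other GW1516 arrays, and their summed signal ranged 20126 to 22720 with vehicle, 22748 to 25572 with AICAR, 17320 to 23304 with GW1516 and 20167 to 24619 with the combination. Of the 8 tendon cell markers 6 passed, among them Fmod, which is also in the matrix list. Scx and Mkx, which define the lineage, did not pass. The 6 markers had medians of -0.40, -1.13 and -0.30 on the 3 GW1516 arrays. Their summed signal ranged 3391 to 5806 with vehicle, 3083 to 6187 with AICAR, 1953 to 3569 with GW1516 and 3389 to 3953 with the combination. All 6 were below 0 in GW1516 against vehicle with and without replicate 2 (medians -0.64 and -0.39), the same direction as Col22a1, but limma called 0 members, and 3 of the 6 were lower at an unadjusted p below 0.05, against 5.16% of all genes. On the combination arrays, where Col22a1 was also low, the tendon marker medians were -0.016, -0.46 and -0.13, and on the vehicle arrays they ran from -0.34 to 0.45. The part of either cell type in the collagen differences was not tested.

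Adipocyte markers (7 of 9 on the array, all 7 past the filter) had medians relative to vehicle from -0.55 to 0.59 on vehicle, -0.093 to 1.70 on AICAR, 0.18 to 1.23 on GW1516 and -0.096 to 1.43 on combination arrays. All 7 were above 0 in GW1516 against vehicle, with a median of 0.69, and 0.94 without replicate 2. They were also all above 0 against vehicle with AICAR (median 0.97) and the combination (0.61). In each of these comparisons 0 of the 7 had an unadjusted p below 0.05. Macrophage markers (8 of 8) had a median of -0.64 on GW1516 replicate 2 and were below 0 in 7 of 8 in GW1516 against vehicle, 5 of 8 without it. Endothelial markers (7 of 7) were below 0 in 4 of 7, smooth muscle and pericyte markers (7 of 7) in 3 of 7, Schwann cell markers (4 of 4 on the array) in 3 of 4, and cartilage and bone markers (4 of 6 on the array, Acan and Matn1 being too dim) in 2 of 4. Muscle fibre markers were above 0 in 5 of 7, with a median of -0.03 on GW1516 replicate 2, within 0.1 of the vehicle mean. The part of these cell types in the collagen differences was not tested.

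**Figure D5:**
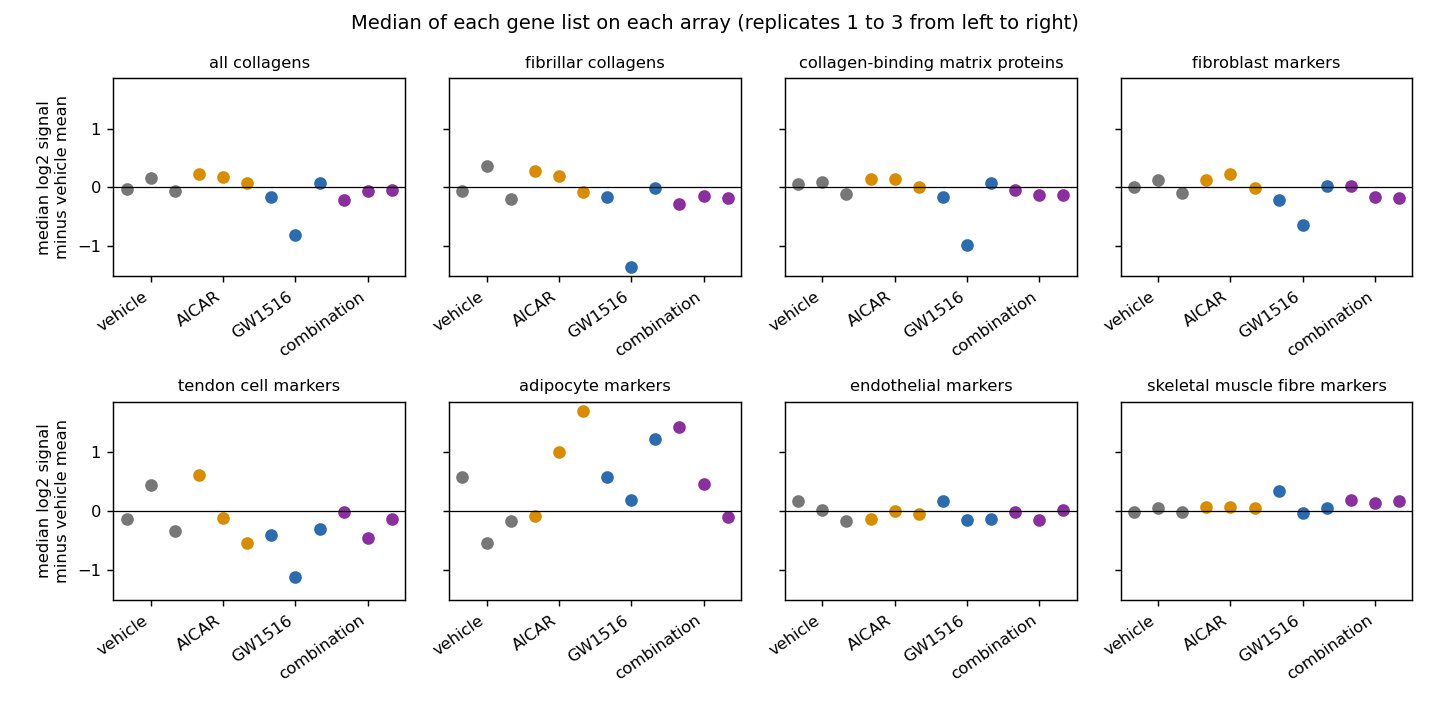
Median log2 signal relative to the vehicle mean on each array for all collagens, fibrillar collagens and 6 other gene lists, with replicates 1 to 3 from left to right. GW1516 replicate 2 is lowest for the collagens (-0.82), matrix proteins (-0.99), fibroblast markers (-0.65) and tendon markers (-1.13), and near 0 for muscle fibre markers.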

How the data were processed

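The authors deposited 1 intensity per probe set and array, computed with MAS5 per the submitters' processing notes, from 12 arrays of pooled quadriceps RNA. The intensities were already scaled to a trimmed mean of 200. They were floored at 1 (3531 of 540444 values lay below it) and taken as log2, and the 64 control probe sets were left out. Of the rest, 34945 probe sets carried 1 gene symbol in the platform annotation, 932 several and 9160 none, and only the first kind was named. The brightest probe set stood for a gene, and the dimmest 40% by mean log2 signal (below 28.2) were left out. Limma 3.58.1 in R 4.3.3 fitted group means over all 12 arrays, with a trended variance prior and Benjamini-Hochberg adjustment over 12771 genes at 0.05. The fitting step was also run on simulated data with independent noise for each gene and array. Those data held no deviating array, so they cannot show how the fit handles GW1516 replicate 2. Alternatives covered scaling, offset, filter, probe set choice, variance model, replicate block and leaving out each array. The collagens and all gene lists were chosen with earlier results of these data known, so no list is independent evidence. Collagens are named in every class, and in the other lists some, not all, of the genes with the smallest p in GW1516 against vehicle. Values per array of Col8a1 and Col19a1 were added after their values were seen.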

Additional observations from a re-analysis of the deposited data

Results flagged for a closer look

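In the brightest probe set of Col22a1, the AICAR difference had opposite signs without and with GW1516. Against vehicle it was -0.22 on the log2 scale, with every AICAR array below the vehicle mean, although AICAR and vehicle arrays overlapped. Against GW1516 the combination was 0.25 higher, with every combination array above the GW1516 mean. The interaction, the second difference minus the first, was 0.47 with an unadjusted p of 0.0249 in limma's moderated fit. It did not pass the adjustment over all genes (adjusted p = 0.723). Col22a1 was picked from the collagens by these opposite signs, so the unadjusted p was read on the values that picked it. The share of all genes with such signs was not counted. Without GW1516 replicate 2 the interaction was 0.40, with an unadjusted p of 0.0508 and an adjusted p of 0.791. The other probe sets did not share the pattern. In 1429280_at both differences were above 0 (0.095 and 0.11, interaction 0.019), and in 1446851_at the signs were the reverse (0.15 and -0.21, interaction -0.35).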

How the results depend on the processing

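The number of arrays limits all calls. Without a call in GW1516 against vehicle were averaged probe sets, no trend and only the groups compared (0 collagens each), and leaving out 1 array gave 0 to 1, with 0 without vehicle replicate 2 or 3. The average GW1516 effect gave 0 with averaged probe sets and 1 to 1 with 1 array left out. The 4-group F test gave 0 with averaged probe sets, no trend and the replicate block, and 0 to 1 with 1 array left out, 7 of the 12 omissions giving 0. Against vehicle the combination called 1 collagen, Col22a1, with median centring, log2(signal + 32), the lowest 60% left out and array weights (0 to 1 with 1 array left out, 1 without GW1516 replicate 1 or 2). The Col22a1 probe set count was 0 with no trend and with only the groups compared, and 0 to 1 with 1 array left out (0 without vehicle 2 or 3 or GW1516 2 or 3). With 1 array left out the collagen median ran from -0.52 to -0.070 for GW1516 against vehicle, -0.070 being the value without GW1516 replicate 2. It ran from 0.10 to 0.21 for AICAR and from -0.20 to -0.060 for the combination, and median centring gave 0.023 and -0.22 for these. Medians of all genes under that centring were -0.11 and -0.083. Replicate numbers did not pair the arrays once each gene's group mean was subtracted. The 18 same-number correlations of what was left ran from -0.11 to 0.069, with 0 over 0.1. By these, 2 of 12 arrays were closest to their own number. With the replicate block the F test called 0 collagens, while Col22a1 stayed called in GW1516 against vehicle (adjusted p = 0.0325). Median centring turned the split of all genes called lower and higher in the combination from 13 and 20 to 22 and 8, in GW1516 against AICAR from 0 and 0 to 0 and 20, and in the average AICAR effect from 2 and 2 to 108 and 12. The other comparisons called 0 collagens under each of the 11 alternatives and 12 omissions that was run. The fit of only the groups compared was not run for the interaction, the average effects and the F test. Where calls moved, the cause was not tested.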
